A study of Homo sapiens with 4 samples.

Results

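The locus examined here lies on the short arm of chromosome 18 and holds the coding genes TGIF1 and DLGAP1 and the antisense RNAs DLGAP1-AS1 and DLGAP1-AS2. Its members were chosen by peak calls: all peaks that carried the name of 1 of these 4 genes, and all other peaks that start between 3.35 and 3.95 Mb on this chromosome (hg19). The rule took 18 of 6263 peaks in APC ChIP replicate 1 and 26 of 8393 peaks in APC ChIP replicate 2. All of them lay inside the window, and no peak in the window carried another gene name. The locus was picked for its number of peaks, so that number, the positions and the sharing are given as a description with no test.

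The peaks came from chromatin of HCT-116, an established colon cancer cell line with wild-type APC and the stabilised β-catenin CTNNB1ΔSer45. There were 2 APC ChIP samples and 2 samples of pre-cleared input chromatin, labelled as 2 independent biological replicates. Both groups shared the cell line, its genotype and the fixation, 24 h after seeding with 1% formaldehyde for 10 min, and no group without APC or without the mutation was compared. The antibody was polyclonal and raised against the C terminus of APC, so it recognises APC that retains that end. The 2 replicates were made with several months between them, according to the methods, so a difference between replicates and one between preparation dates cannot be told apart. The deposited lists held positions, widths and annotations without read counts, so the depth is unknown, and no values of the input samples were analysed here.

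APC is a tumor suppressor that helps mark β-catenin for degradation in the cytoplasm and has also been found on chromatin, where β-catenin binds TCF7L2 and other TCF/LEF factors at WNT-responsive elements. AP-1 is a family of FOS and JUN dimers that binds enhancers and promoters in response to growth signals. TGIF1 is a homeodomain co-repressor that binds SMAD2 and SMAD3 and dampens TGF-beta responses. DLGAP1 is a scaffold protein of the postsynaptic density in neurons and is transcribed from the minus strand. The antisense RNAs are long non-coding RNAs (lncRNAs) that run from the plus strand through the introns of DLGAP1.

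The sequence that carries most of the description is the DLGAP1-AS2 promoter, which lay whole inside a peak of both replicates. It is printed from RefSeq on GRCh38.p14 (chr18:3603487-3603786, plus strand), and the same 300 bases stood at 3603485–3603784 in hg19. Capitals mark a USF match and the 2 AP-1 matches. The motifs searched, always on both strands, were AP-1 (TGACTCA or TGAGTCA), TCF7L2 (NNCAAAG, where each N stood for A or T), USF (CACGTG), EGR1 (GCGGGGGCG or GCGTGGGCG), and the SP1 and NRF1 consensus sequences. A match is a run of letters and not evidence of a bound factor.
DLGAP1-AS2 promoter: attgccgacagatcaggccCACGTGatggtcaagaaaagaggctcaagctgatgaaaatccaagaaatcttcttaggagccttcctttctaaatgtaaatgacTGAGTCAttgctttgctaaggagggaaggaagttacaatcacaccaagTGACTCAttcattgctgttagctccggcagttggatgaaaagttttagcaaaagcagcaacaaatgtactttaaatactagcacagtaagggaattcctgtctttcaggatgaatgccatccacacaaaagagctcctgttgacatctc
Of the 35116 RefSeq promoters of this length, 4.95% held an AP-1 match, 0.222% held 2 or more, and 7.26% held a USF match. These shares cover promoters with or without a peak, whereas the promoter shown lay inside peaks. Of all regions shared by both replicates, with a median length of 671 bp, 39.2% held an AP-1 match. Nothing is therefore read from the promoter shares.

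A second antisense promoter in the locus also held 2 AP-1 matches and also lay whole inside a peak of both replicates. It belongs to an lncRNA that RefSeq names DLGAP1-AS6, which is no member of the chosen set and was named after its values were seen. The window is again from RefSeq on GRCh38.p14 (chr18:3652780-3653079, plus strand), and its sequence has the same coordinates in hg19. Capitals mark the AP-1 matches, which start 11 bp apart. They lie just downstream of the transcription start around which this window was taken. A second RefSeq promoter of DLGAP1-AS6, at 3652864–3653163, has its start farther downstream, so the same 2 matches lie upstream of that start.
DLGAP1-AS6 promoter: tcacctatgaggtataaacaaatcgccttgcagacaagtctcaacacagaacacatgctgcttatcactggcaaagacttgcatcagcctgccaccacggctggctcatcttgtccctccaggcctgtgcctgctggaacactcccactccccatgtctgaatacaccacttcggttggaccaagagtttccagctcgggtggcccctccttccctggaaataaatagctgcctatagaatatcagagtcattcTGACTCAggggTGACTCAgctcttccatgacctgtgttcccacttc
GENCODE places the lncRNA gene ENSG00000266401, with 5 transcripts, at 3653030–3656282 of hg19, and its first base is the start around which this RefSeq window was taken. The deposited lists gave no peak the name DLGAP1-AS6, and the peaks there carried the name DLGAP1-AS2.

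A further 5 AP-1 matches of the shared intervals are shown with 30 bases on each side, on the plus strand of hg19, to allow the settings of the matches to be compared. A shared interval runs between the outer ends of replicate peaks whose centres lay under 400 bp apart. The first lies upstream of the RefSeq start of DLGAP1-AS2 but inside the longer GENCODE gene, the second in its first intron, and the last 3 in an intron of DLGAP1. Capitals mark AP-1.
chr18:3603236-3603302: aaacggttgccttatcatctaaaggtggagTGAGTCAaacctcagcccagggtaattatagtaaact
chr18:3604762-3604828: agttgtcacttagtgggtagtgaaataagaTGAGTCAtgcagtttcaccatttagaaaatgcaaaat
chr18:3624094-3624160: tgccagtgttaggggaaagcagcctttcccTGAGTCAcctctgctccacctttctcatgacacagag
chr18:3625002-3625068: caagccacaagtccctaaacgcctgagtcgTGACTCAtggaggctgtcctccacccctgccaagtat
chr18:3625349-3625415: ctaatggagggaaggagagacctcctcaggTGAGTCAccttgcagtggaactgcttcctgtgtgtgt

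The peaks were unevenly divided among the members. DLGAP1-AS2 had 14 peaks in replicate 1 and 23 in replicate 2, DLGAP1-AS1 had 2 in each, TGIF1 had 2 and 1, and DLGAP1 had none in either. The locus took up 16.8% of the 107 replicate 1 peaks and 17.1% of the 152 replicate 2 peaks on chromosome 18. The nearest peak to its left carried the name MYL12B and lay 185764 bp away in replicate 1 and 185748 bp away in replicate 2. To the right, the next replicate 1 peak was 569493 bp away and carried the name DLGAP1-AS5, and the next replicate 2 peak was 1628221 bp away, at ZBTB14. Within the locus, the TGIF1 peaks were separated from the DLGAP1-AS1 peaks by 142918 bp in replicate 1 and 144881 bp in replicate 2. GAPLINC, an lncRNA gene at 3466248–3487043 in that gap, overlapped no peak.

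The remaining peaks formed a stretch of about the same extent in both replicates. In replicate 1, 16 peaks spanned 73048 bp and covered 7313 bp of it, or 10.0%. In replicate 2, 25 peaks spanned 72811 bp and covered 23442 bp, or 32.2%. The stretch began and ended at nearly the same positions in both lists, while the covered length differed more than its ends.

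**Figure D1:**
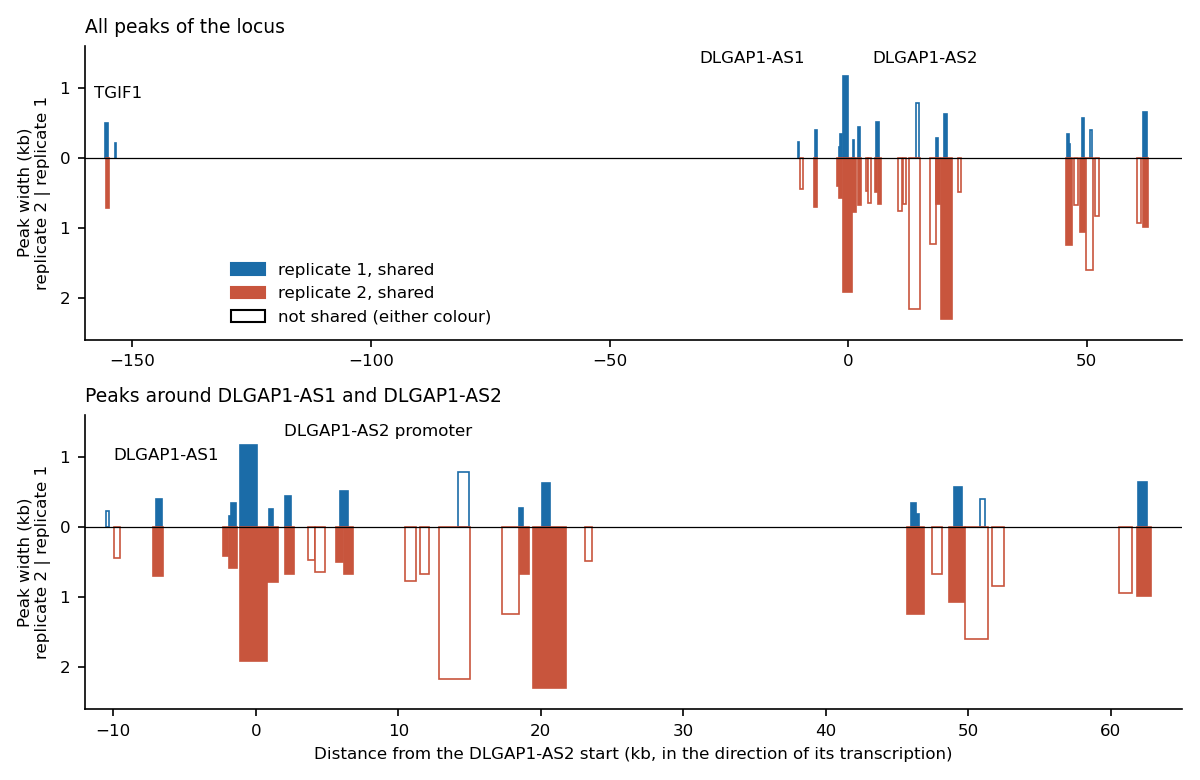
Position and width of every peak in the locus, with distance from the DLGAP1-AS2 start in kb on the horizontal axis and peak width in kb on the vertical axis (replicate 1 above and replicate 2 below the line); the lower panel enlarges the antisense stretch. Filled boxes are shared peaks and open boxes unshared ones; peaks of both replicates crowd around the DLGAP1-AS2 start, and the 3 widest replicate 2 peaks (2306, 2166 and 1913 bp) stand at the start and downstream of it.

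The widest replicate 1 peak of the locus covered the DLGAP1-AS2 promoter, at 3602635–3603802. It was 1169 bp wide and ranked 95 of 6263, and the replicate 2 peak there, at 3602608–3604519, was 1913 bp wide and ranked 74 of 8393. The replicate 1 peak lay entirely within the replicate 2 peak, whose extra length was nearly all on the downstream side, and the centres were 345 bp apart. The 7 GENCODE starts of DLGAP1-AS2, which occupies 3602998–3610101, all fell inside the replicate 2 peak, and 2 of them fell inside the replicate 1 peak. Its 3 AP-1 matches were centred 466, 144 and 96 bp upstream of the start that the deposited distances imply (position 3603735), and all 3 lay inside the peaks of both replicates. The single TCF7L2 match of this interval lay at 3602613–3602619, inside the replicate 2 peak and outside the replicate 1 peak.

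Just upstream, both replicates had a pair of smaller peaks. The replicate 1 peaks at 3601869–3602024 and 3602029–3602365 were 157 and 338 bp wide, and the replicate 2 peaks at 3601403–3601810 and 3601855–3602436 were 409 and 583 bp wide. The first replicate 2 peak of this pair overlapped no replicate 1 peak and counted as shared only because a centre lay 340 bp away. The interval held 1 TCF7L2 match and no AP-1 match.

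A further 3 shared intervals lay in the body of DLGAP1-AS2. In its first intron, the peak at 3604685–3604939 in replicate 1 was 256 bp wide and the one at 3604548–3605326 in replicate 2 was 780 bp wide, and this interval held the AP-1 match shown above. Farther into that intron, widths were 438 bp at 3605768–3606204 in replicate 1 and 671 bp at 3605776–3606445 in replicate 2, with 1 TCF7L2 match. At the last exon, the 508 bp replicate 1 peak at 3609668–3610174 met a pair of replicate 2 peaks, 496 bp wide at 3609345–3609839 and 665 bp wide at 3609913–3610576. The replicate 1 peak bridged the gap between them, at centre distances of 329 and 323.5 bp. Replicate 2 had another 2 peaks in the second intron of DLGAP1-AS2, at 3607426–3607901 and 3607915–3608562, with no replicate 1 peak within 1106 bp.

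Most peaks named DLGAP1-AS2 lay outside the gene. Of its 14 replicate 1 peaks, 4 overlapped the GENCODE gene body, 3 had centres upstream of the deposited start, and 8 lay more than 10 kb downstream of it. The same counts were 7, 3 and 14 of 23 in replicate 2. The name was given by the nearest RefGene start, and by GENCODE the nearest start was that of ENSG00000266401, the DLGAP1-AS6 gene, for 5 of the 14 and 7 of the 23 peaks. All peaks assigned to the antisense RNAs in both replicates, 16 in replicate 1 and 25 in replicate 2, lay within the body of DLGAP1 (3496030–4455307), mostly in intron 4 of its RefSeq transcripts.

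The downstream intervals were, in order, at 18.8, 20.6, 46.3, 49.2 and 62.3 kb from the DLGAP1-AS2 start. At 18.8 kb the replicate 1 peak was 277 bp wide and the replicate 2 peak 667 bp, and this was the only shared interval of the locus with neither an AP-1 nor a TCF7L2 match. At 20.6 kb, replicate 1 had a 626 bp peak at 3623794–3624418. Around it lay the widest replicate 2 peak of the locus, 2306 bp at 3623223–3625527, ranked 42 of 8393. That interval held 3 AP-1 and 2 TCF7L2 matches, and 1 of the AP-1 matches lay within the replicate 1 peak.

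At 46.3 kb, a pair of replicate 1 peaks, 339 and 190 bp wide at 3649716–3650053 and 3650067–3650255, lay within 1 replicate 2 peak of 1245 bp. The interval held 1 match each to AP-1, TCF7L2 and USF, and the AP-1 match stood outside both replicate 1 peaks. At 49.2 kb, the interval at the DLGAP1-AS6 start had a 568 bp peak in replicate 1 (3652710–3653276) and a 1067 bp peak in replicate 2 (3652415–3653480), with centres 45.5 bp apart, the closest pair of the locus. It contained the 2 AP-1 matches printed above and 3 TCF7L2 matches, 2 of which stood close together. They are shown because no other shared interval of the locus had TCF7L2 matches this near each other.
chr18:3653421-3653478: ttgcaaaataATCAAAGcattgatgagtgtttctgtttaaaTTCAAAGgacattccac
At 62.3 kb, the peaks were 648 bp wide in replicate 1 and 990 bp in replicate 2, and the interval held 2 TCF7L2 matches and no AP-1 match.

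The RefSeq promoter of DLGAP1-AS1 was covered in replicate 2 only. The replicate 2 peak at 3593757–3594198, 443 bp wide, held all 300 bases of that promoter, and the replicate 1 peak at 3593246–3593467, 223 bp wide, held none of them. The peaks were separated by 290 bp and their centres by 621 bp, so they were not shared although both lists annotated them to the DLGAP1-AS1 promoter. The promoter held no match to any of the 6 motifs. At the last exon of DLGAP1-AS1 the replicates met again, with a 397 bp peak at 3596764–3597159 in replicate 1 inside a 701 bp peak at 3596514–3597213 in replicate 2, and with 1 TCF7L2 match.

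TGIF1 had 1 shared interval. It joined a 490 bp replicate 1 peak at 3448062–3448550 and a 717 bp replicate 2 peak at 3448161–3448876, whose centres were 212.5 bp apart. The lists measured these peaks from different TGIF1 transcripts, with 722 bp downstream of one start for replicate 1 and 893 bp upstream of another for replicate 2. Of the 7 RefSeq promoters of TGIF1, 1 (hg19 3448179–3448478) lay whole inside the peaks of both replicates. The interval had 1 EGR1 match, the only one in the shared intervals of the locus, and 1 TCF7L2 match. The other TGIF1 peak, 213 bp wide at 3450117–3450328 in replicate 1, covered 3 GENCODE starts and had no replicate 2 peak nearer than 1241 bp. Both replicate 1 peaks of TGIF1 overlapped untranslated exon sequence.

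DLGAP1 itself had no peak by name. The 2 RefSeq promoters examined for it, at 3845309–3845608 and 3874711–3875010, lie inside the gene body. They overlapped no peak and held no match to the 6 motifs. The GENCODE gene begins at 4455307 on the minus strand, outside the window, and no promoter there was examined. Of the other antisense genes of DLGAP1 in GENCODE, DLGAP1-AS3 lies inside the window and overlapped no peak. DLGAP1-AS4 (from 3962353) and DLGAP1-AS5 (from 4264602) start beyond the window, so the rule left them out and nothing is read about them. The replicate 2 peak at 3655405–3656240 covered a coding exon of some DLGAP1 transcripts although the list placed it in an intron of another.

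Sharing between the replicates was then counted over the locus. In replicate 1, 14 of 18 peaks (77.8%) were shared, against 63.6% of all replicate 1 peaks. In replicate 2, 14 of 26 peaks (53.8%) were shared, against 45.5% of all replicate 2 peaks. The locus was chosen on peak calls in both lists, so nothing is read from these shares. The distances deposited by the authors matched the recomputed ones within 2 bp for 18 of 18 replicate 1 peaks.

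Overlap and centre distance did not always give the same answer. Of the 18 replicate 1 peaks, 16 overlapped a replicate 2 peak and 12 lay wholly inside one, and 2 that lay wholly inside were still not shared. The first was the 785 bp peak at 3617924–3618707, in the widest 10% of its list, which lay inside the 2166 bp replicate 2 peak at 3616583–3618747 at a centre distance of 650.5 bp. The second was the 394 bp peak at 3654532–3654924, inside a 1598 bp replicate 2 peak, at 412 bp, just outside the threshold. The next distances were 621 bp at the DLGAP1-AS1 promoter and the 650.5 bp above, and the peaks just inside the threshold were the DLGAP1-AS2 promoter at 345 bp and the last exon of DLGAP1-AS2 at 323.5 bp. Over the 14 shared replicate 1 peaks the median centre distance was 138.25 bp, against 64.5 bp over all 3984 shared replicate 1 peaks.

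**Figure D2:**
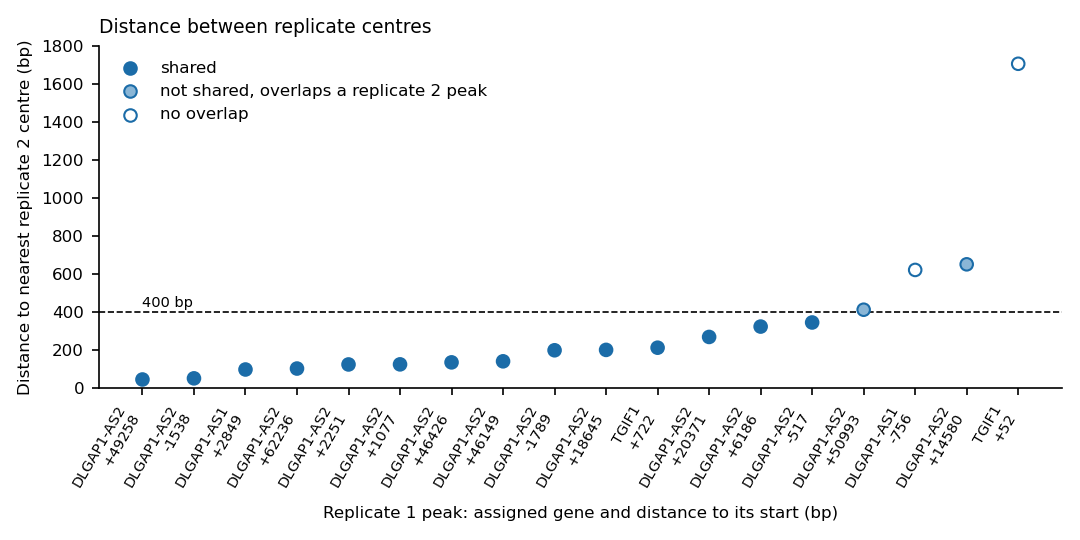
Distance in bp from each of the 18 replicate 1 peak centres to the nearest replicate 2 centre, in order of distance, with the assigned gene and the distance to its start under each point and the 400 bp threshold as a dashed line. The 14 shared peaks run up to 345 bp, the 2 light points at 412 and 650.5 bp lie inside a replicate 2 peak, and the open points are the DLGAP1-AS1 promoter at 621 bp and the TGIF1 peak at 1704 bp.

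The unshared peak inside the 2166 bp replicate 2 peak had 4 TCF7L2 matches, as many as the replicate 2 peak around it and more than any other peak in the locus, and no AP-1 match. Both replicates covered all 4 of these matches. The hg19 stretch that holds them is shown because the 400 bp rule removed it from the shared intervals. Capitals mark TCF7L2, of which the second match is on the minus strand.
chr18:3618116-3618406: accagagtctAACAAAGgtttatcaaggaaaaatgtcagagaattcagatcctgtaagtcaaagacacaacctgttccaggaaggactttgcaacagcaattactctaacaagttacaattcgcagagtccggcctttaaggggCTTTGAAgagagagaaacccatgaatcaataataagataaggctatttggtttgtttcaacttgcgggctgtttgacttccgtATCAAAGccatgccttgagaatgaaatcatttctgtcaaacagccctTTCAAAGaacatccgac

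Peaks of the locus were wider in replicate 2. The median width was 395.5 bp (range 157 to 1169, n = 18 peaks) in replicate 1, where all peaks had a median of 371 bp, and 709 bp (range 409 to 2306, n = 26 peaks) in replicate 2, where all peaks had a median of 532 bp. In replicate 1, 10 of 18 peaks were above the median of their list and 2 were in its widest 10%. In replicate 2, 21 of 26 were above the median, 9 were in the widest 10% and 3 in the widest 1%. Width depends on depth and threshold as well as on enrichment, and the part these played was not tested.

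For each shared replicate 1 peak, the replicate 2 peak with the nearest centre was wider, in 14 of 14 cases. Seen from replicate 2, the shared 496 bp peak near the end of DLGAP1-AS2 was narrower than the 508 bp replicate 1 peak beside it. The ratio of widths, replicate 2 over replicate 1, had a median of 1.82 (range 1.31 to 6.55), against 1.51 over all shared peaks, of which 90.4% were above 1. In the locus, 6 of 14 ratios exceeded 2.06, the upper quartile of all shared peaks. The smallest ratio was at the last exon of DLGAP1-AS2 and the largest at the second peak of the 46.3 kb interval. Some partners were shared: the 2 replicate 1 peaks of the 46.3 kb interval had the same replicate 2 partner, and so did the pair upstream of the DLGAP1-AS2 promoter.

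**Figure D3:**
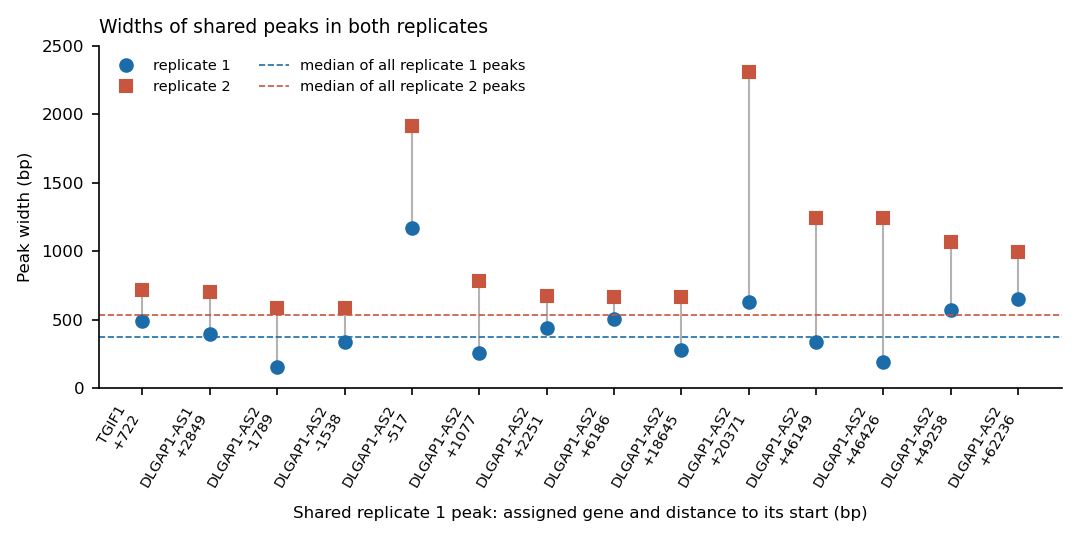
Width in bp of the 14 shared replicate 1 peaks (circles) and of their nearest replicate 2 peaks (squares), joined by a line, with the assigned gene and the distance to its start under each pair; dashed lines are the medians of all replicate 1 peaks (371 bp) and all replicate 2 peaks (532 bp). The square is above the circle in every pair, and the widest squares are those of the DLGAP1-AS2 promoter (1913 bp) and the 20.6 kb interval (2306 bp).

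Replicate 2 also had 11 locus peaks that overlapped no replicate 1 peak. Their distance to the nearest replicate 1 peak ran from 18 to 2919 bp, with a median of 842 bp. Of these, 8 of 11 (72.7%) lay up to 2 kb from a replicate 1 peak, against 594 of 4537 (13.1%) over all such replicate 2 peaks. The closest was the 1238 bp peak at 3620989–3622225, which ended 18 bp before the replicate 1 peak of the 18.8 kb interval. Peaks of this locus were dense in both lists by the way it was chosen, so this proximity is a description.

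The shared peaks merged into 12 intervals of 3777 in the series. With gaps of up to 10 kb between neighbouring centres they fell into 5 groups. TGIF1 stood alone. The largest group held 6 intervals over 14063 bp, 3596514–3610576, and took in the last exon of DLGAP1-AS1 and the promoter and body of DLGAP1-AS2. The intervals at 18.8 and 20.6 kb formed a pair over 3285 bp, those at 46.3 and 49.2 kb a pair over 4077 bp, and the interval at 62.3 kb stood alone. The largest gap inside the antisense stretch was 25650.5 bp, between the 20.6 and 46.3 kb intervals. A window of 75 kb around a locus interval held up to 10 shared intervals, and 44 of the 3777 intervals of the series, 2 of them in the locus, had at least as many. The median over all was 1.

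By deposited distance, 6 of the 12 intervals lay within 5 kb of an annotated start, against 44.2% of all shared intervals. These were the TGIF1 interval, the DLGAP1-AS1 exon, the interval upstream of DLGAP1-AS2, its promoter and the 2 intervals of its first intron. By GENCODE, the centre of the 49.2 kb interval was 82.5 bp and that of the 46.3 kb interval 3004.5 bp upstream of ENSG00000266401.

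AP-1 matches occurred in 5 of 12 shared intervals, against 39.2% of all shared intervals, so the share of the locus was near the background. The 10 matches amounted to 0.745 per kb, against 0.772 per kb over all shared intervals. They stood in 3 places: around the DLGAP1-AS2 start (4 matches), in the 20.6 kb interval (3), and in the 46.3 and 49.2 kb intervals (3). At least 2 AP-1 matches stood in 3 of 12 intervals, against 13.2% of all shared intervals. In windows of the same length 5 kb to each side, AP-1 matched in 7 of 24 locus windows at 0.372 per kb, against 12.4% and 0.186 per kb for the flanks of all shared intervals. Some of the locus flanks overlapped other peaks of the locus.

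TCF7L2 matches occurred in 10 of 12 shared intervals, against 44.6% of all shared intervals, but at a density close to that of the series: 14 matches, or 1.04 per kb, against 1.00 per kb. The intervals of the locus were longer, with a median of 1011.5 bp against 671 bp. Among the 516 shared intervals at least as long as the locus median, 66.7% held a TCF7L2 match and 55.2% an AP-1 match. The 6 locus intervals of that length had a TCF7L2 match in 6 and an AP-1 match in 4. Both motifs stood together in 4 of 12 intervals, against 23.8% of all shared intervals. In the flanks, TCF7L2 matched in 11 of 24 locus windows (45.8%) at 0.559 per kb, against 41.6% and 0.808 per kb for the flanks of all shared intervals.

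Other motifs were sparse. USF matched in 2 of 12 intervals, the DLGAP1-AS2 promoter and the 46.3 kb interval, against 25.2% of all. SP1 and NRF1 matched in none, against 16.1% and 3.07% of all shared intervals. The median GC content of the locus intervals was 45.3%, against 51.3% over all.

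**Figure D4:**
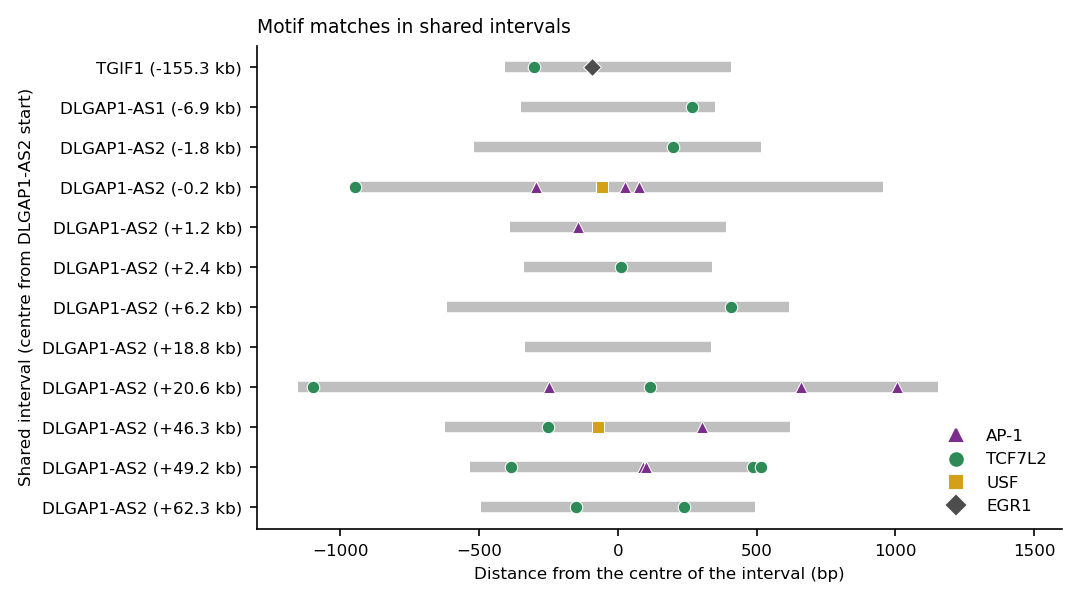
Matches to AP-1, TCF7L2, USF and EGR1 in the 12 shared intervals of the locus, one grey bar per interval drawn to scale, with distance from the interval centre in bp on the horizontal axis and the assigned gene with its distance in kb from the DLGAP1-AS2 start on the vertical axis. AP-1 triangles stand in 5 intervals and TCF7L2 circles in 10, and the 18.8 kb interval has no mark.

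The motifs were also counted over the whole antisense stretch, including the sequence between peaks. Of 23 AP-1 matches in the 73323 bp from 3593246 to 3666568, 11 (47.8%) fell in a peak of either replicate, while peaks covered 32.4% of the bases. Of these, 7 fell in a replicate 1 peak. Of 63 TCF7L2 matches, 27 (42.9%) fell in a peak. Density was 0.464 per kb inside peaks and 0.242 per kb outside for AP-1, and 1.14 and 0.726 per kb for TCF7L2. USF had 8 matches in the stretch, SP1 had 2, and NRF1 and EGR1 had none.

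Repeats were a further feature that the rule had not used. The detailed annotation placed 3 of 18 replicate 1 peaks (16.7%) and 4 of 26 replicate 2 peaks (15.4%) in Alu elements, the common short interspersed repeats of the human genome. Over all peaks this share was 2.59% in replicate 1 and 2.35% in replicate 2. The replicate 1 peaks were those of 157, 277 and 190 bp upstream of the DLGAP1-AS2 promoter and at 18.8 and 46.3 kb, each of them under the median width of its list. For each of these, the replicate 2 peak with the nearest centre was one that the list did not place in an Alu. Seen from replicate 2, the 409 bp Alu peak upstream of the DLGAP1-AS2 promoter was shared by its distance of 340 bp to the centre of the 157 bp peak. Reads from repeats can be hard to place, and the part this played was not tested. No peak of the locus was annotated to a satellite. Any repeat was named for 4 of 18 (22.2%) and 9 of 26 (34.6%) locus peaks, against 18.6% and 22.1% of all peaks.

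TGIF1 was set among other genes of SMAD and TGF-beta signaling. Of 25 such genes, 8 (32%) had a shared region assigned to them, against 10.9% of 20149 protein-coding genes. TGIF1 is counted in this share although it belongs to a locus picked for its number of peaks. The list was also chosen with earlier results of these data known, so nothing is read from the share. They were TGFBR2, the type II receptor, with 5, SMAD3, a receptor-activated SMAD, with 4, the inhibitory SMAD7 with 4 and SMAD6 with 3, and 1 each for TGIF1, the ubiquitin ligase SMURF2, the SMAD anchor ZFYVE9 and the feedback inhibitor PMEPA1. The nearest shared region was 87 bp from the start for SMAD3, 76 bp for SMAD7, 158 bp for SMAD6 and 722 bp for TGIF1. It was farther for PMEPA1 (7102 bp), TGFBR2 (9153 bp), ZFYVE9 (16408 bp) and SMURF2 (50519 bp). SMAD2, SMAD4, TGFBR1 and the TGF-beta ligands had no shared region. Of 15 DLGAP and postsynaptic scaffold genes, 1 (6.67%) had one: HOMER1, 93407 bp from its start. DLGAP2, DLGAP3, DLGAP4 and DLGAP5, paralogs of DLGAP1, had none.

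Other genes with many shared regions were set beside DLGAP1-AS2 by how far these spread. PHLDB2, for which the paper listed more APC peaks than for FAT1, was not among them. The 10 shared intervals named DLGAP1-AS2 spanned 64425 bp, with 4 within 5 kb of the start and a median distance of 12415.5 bp for its shared replicate 1 peaks. ERRFI1, a feedback inhibitor of EGFR, had 11 intervals over 141665 bp, with 1 within 5 kb. AREG, an EGFR ligand, had 11 over 184681 bp with none within 5 kb, and FAT1, an atypical cadherin, had 12 over 252495 bp with 2. PCDH7, a protocadherin, had the most intervals, 32 over 924130 bp, and none within 5 kb. KRR1 and TRIB1 had 15 intervals over 255859 bp and 13 over 415824 bp. DLGAP1-AS2 thus had the shortest span of these 7 genes and the most intervals near a start. AP-1 matched in 5 of its 10 intervals, against 5 of 11 for ERRFI1, 8 of 11 for AREG, 8 of 12 for FAT1, 8 of 13 for TRIB1, 4 of 15 for KRR1 and 9 of 32 for PCDH7. TCF7L2 matched in 8 of 10 intervals for DLGAP1-AS2, 6 of 11 for ERRFI1, 9 of 11 for AREG and 9 of 12 for FAT1. It matched in 9 of 13 for TRIB1, 11 of 15 for KRR1 and 25 of 32 for PCDH7. All 7 genes were selected on their number of shared regions, so these values stand side by side with no test.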

How the data were processed

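Chromatin of HCT-116 cells was profiled by APC ChIP-seq in 2 replicates with 2 inputs. The authors aligned reads to hg19 with BWA, ran MACS2 on every replicate separately with its matching input, and adjusted the score threshold to keep peaks at AXIN2, DKK1 and MYC. Tool versions are not given in the sources used here. Peaks were annotated with RefGene. The deposited positions, widths, distances to a start and centre distances are in bp, and the column that the authors deposited as a score held the width. No p-value, fold enrichment or read count was used, so no precision by depth could be given.

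Peaks whose centres lay under 400 bp apart were called shared. The methods of the study name summits, which the lists used here did not give, while the deposited distances are between centres. Paired peaks were merged into intervals between their outer ends. Motifs were searched on GRCh37, the build of the files, with GENCODE 44 for genes. Promoters, 250 bases before to 50 after each start, came from RefSeq on GRCh38.p14 (11 promoters for the 4 members) and were placed on hg19 by exact match. Genes named were all members, every gene between the first and last peak or with the nearest start, list genes with a shared region, and the comparison genes. Neighbouring genes outside the locus, the other antisense genes and list genes with no shared region were named after their values were seen. The members and lists were chosen with earlier results of these data known. No significance test was run, because the members were selected on the same peak calls and the peaks of 1 library are not replicates. Alternatives were the sharing distance, overlap, width, spacing, motif window and replicate. Code ran in Python 3.11.15 with numpy 2.4.6, pandas 2.3.3 and matplotlib 3.10.9 and was tested on simulated data. The sequence around the AP-1 match of the 46.3 kb interval is not reported here.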

Additional observations from a re-analysis of the deposited data

How the results depend on the processing

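Counts depended most on the sharing distance. Under 200 bp, 9 replicate 1 and 7 replicate 2 peaks were shared, giving 7 intervals in 3 groups, 3 with AP-1 and 6 with TCF7L2. Under 100 bp, 3 peaks of each replicate were shared, giving 3 intervals in 2 groups, 1 with AP-1, 3 with TCF7L2 and 2 within 5 kb of a start. With the wider 50% of each list, 8 peaks of each replicate were shared and 3 intervals held AP-1. Gaps of up to 20 kb gave 3 groups. TCF7L2 matched in 5 intervals within 300 bp around replicate 1 centres and in 6 within the overlap of both peaks. With each replicate left out, the other replicate's peaks stood in for intervals: groups ranged from 3 to 4, peaks with AP-1 from 4 to 6, peaks with TCF7L2 from 9 to 16, and peaks within 5 kb of a start from 9 to 10. Of 63 alternatives, 22 moved a count by over 1.5 times or a width by over its spread. Selecting by gene name alone or by window alone gave the same 18 and 26 peaks. The number of intervals under each sharing rule was added after seeing the data. Widths and centre distances were compared within pairs of peaks, and no paired test was run. Depth is unknown, so neither an unshared peak nor a stretch without peaks shows that APC was absent.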
